A study of Arabidopsis thaliana with 18 samples.

Results

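J0951/UAS-YUC4 and J0951/Col are 2 genotypes of Arabidopsis thaliana that share the GAL4 driver line J0951 and differ in the UAS-YUC4 transgene. The comparison used 6 of the 18 libraries of the study, 3 of each genotype, chosen by their sample titles. RNA came from roots of 5-day-old seedlings grown on 1/2 MS medium. A GAL4 driver line makes the yeast activator GAL4 in a subset of cells, and a gene behind UAS, the binding site of GAL4, is switched on in those cells. J0951/UAS-YUC4 carried the driver with YUC4 behind UAS, and J0951/Col carried the driver with Col in place of that transgene. In the remaining 12 libraries UAS-YUC4 was combined with the drivers J0571, Q2500, J0121 or Q0990, 3 libraries each, with no driver control of their own among the samples used here. The root cells in which J0951 is active, the number of plants in a library and the origin of the 3 libraries of a genotype, from separate cultures or not, are not stated in the labels. The p-values therefore rest on differences among libraries that could be technical.

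Auxin (indole-3-acetic acid) is made from tryptophan in a pair of steps, in which TAA1 and its relatives make indole-3-pyruvate and the YUCCA flavin monooxygenases, YUC4 among them, turn it into auxin. Auxin joins TIR1/AFB receptors to Aux/IAA repressors, the repressors are degraded, and ARF transcription factors become free to act on their targets. Early targets include the Aux/IAA genes themselves, SAUR genes and GH3 genes, whose enzymes attach auxin to amino acids and so lower the free pool. In roots auxin is known for setting meristem size, starting lateral roots, promoting root hairs and restraining elongation. ARF proteins bind the hexamers TGTCTC and TGTCGG, called auxin response elements.

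The 250 bases upstream of the start of 4 auxin-induced genes are shown because these genes rose together in J0951/UAS-YUC4 and their upstream sequence holds such elements. Sequences are from RefSeq (TAIR10.1), read 5′ to 3′ on the gene's strand, and capitals mark TGTCTC or TGTCGG, or the reverse complement of the latter.
GH3.3, chr2:9866563-9866812, minus strand: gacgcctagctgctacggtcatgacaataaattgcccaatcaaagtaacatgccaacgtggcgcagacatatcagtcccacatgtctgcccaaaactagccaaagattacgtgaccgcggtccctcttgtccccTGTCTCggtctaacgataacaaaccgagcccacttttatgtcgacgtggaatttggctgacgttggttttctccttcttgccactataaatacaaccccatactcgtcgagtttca
GH3.2, chr4:17579368-17579617, plus strand: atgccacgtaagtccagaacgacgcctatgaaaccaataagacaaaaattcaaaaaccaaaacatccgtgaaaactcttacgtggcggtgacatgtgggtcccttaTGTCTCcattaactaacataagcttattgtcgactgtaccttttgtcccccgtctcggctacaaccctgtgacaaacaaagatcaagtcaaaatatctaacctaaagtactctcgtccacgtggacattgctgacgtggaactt
IAA19, chr3:5263751-5264000, plus strand: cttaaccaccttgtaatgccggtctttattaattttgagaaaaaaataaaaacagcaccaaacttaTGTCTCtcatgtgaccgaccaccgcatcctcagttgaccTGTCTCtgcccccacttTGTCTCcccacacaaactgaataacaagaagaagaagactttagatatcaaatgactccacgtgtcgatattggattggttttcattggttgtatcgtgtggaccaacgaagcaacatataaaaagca
IAA5, chr1:5366498-5366747, minus strand: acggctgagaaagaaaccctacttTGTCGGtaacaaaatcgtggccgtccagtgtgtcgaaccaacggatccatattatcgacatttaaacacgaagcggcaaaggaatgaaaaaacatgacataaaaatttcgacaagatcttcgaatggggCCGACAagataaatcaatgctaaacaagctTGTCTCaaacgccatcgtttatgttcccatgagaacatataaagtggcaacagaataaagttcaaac
GH3.3 and GH3.2 each held 1 element, at positions -116 and -144 from the annotated start. IAA19 held 3 copies of TGTCTC, at -184, -145 and -128. IAA5 held 1 TGTCTC at -67 and 2 TGTCGG, at -226 on the same strand and at -97 on the opposite strand.

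Across the table, 7796 of 19260 tested genes were called at an adjusted p under 0.05 by limma with the Benjamini-Hochberg adjustment (40.5%). Of all tested genes, 23.8% were called higher in J0951/UAS-YUC4 and 16.7% lower, and shares near these in a list of genes are the background. Changes of at least 2-fold were called in 3.59%, with 1.88% higher and 1.71% lower. The libraries of the genotypes did not overlap for 52.2% of tested genes, and 38.9% were called with no overlap. The median change over all tested genes was 0.052 on the log2(FPKM + 1) scale, on which every change below is given. FPKM, the unit of the table, is a fragment count scaled to transcript length and to the size of the library. With median-of-ratios scaling the split of calls moved to 3577 higher and 3806 lower, from 4589 and 3207. Correlations between libraries were 0.992 to 0.994 within a genotype and 0.958 to 0.975 between the genotypes. In the text, 3 values in a row are replicates 1, 2 and 3 of a genotype, the standard error (SE) belongs to the change, and adjusted p is limma's over all tested genes.

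YUC4 itself stood at 0.27, 0.15 and 0.30 FPKM in the J0951/Col libraries and at 31.5, 36.6 and 44.6 FPKM in the J0951/UAS-YUC4 libraries. All 3 transgenic libraries lay far above all 3 controls, which matches the labels. The means were 0.240 ± 0.0794 and 37.6 ± 6.60 FPKM (SD, n = 3), and YUC4 rose by 4.95 (SE 0.49, adjusted p = 1.97e-06). The exact two-sided permutation test gave p = 0.1, the smallest it can give for 3 against 3. The table does not separate transcripts of the transgene from those of the endogenous gene.

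Among the other genes of auxin synthesis, the enzyme upstream of YUC4 rose and another YUCCA gene fell. TAA1, the tryptophan aminotransferase, stood at 10.02, 9.38 and 10.03 FPKM in the control libraries and at 23.9, 23.5 and 26.2 FPKM in the transgenic ones. The groups did not overlap, and TAA1 rose by 1.24 (SE 0.14, adjusted p = 5.62e-06), which is 2.50 times the control mean. YUC6 went the other way, from 8.96, 8.38 and 7.43 FPKM to 5.12, 4.20 and 3.14 FPKM, and fell by 0.86 (adjusted p = 2.03e-05). Its 3 transgenic libraries were all below the lowest control. VAS1, an aminotransferase that draws indole-3-pyruvate back from auxin synthesis, was not called, at 63.5, 54.0 and 55.4 FPKM against 60.3, 57.6 and 56.5 FPKM. YUC8, YUC9 and YUC5 were not called either, with changes of 0.23, 0.27 and -0.06. Of 11 tested synthesis genes besides YUC4, 3 were called higher, namely TAA1, TAR2 of the same family and ASB1, a subunit of anthranilate synthase, where 23.8% of all tested genes were. TAR2 and ASB1 rose by 0.35 and 0.25 (adjusted p = 0.0143 and 0.0321). Both lost the call without J0951/UAS-YUC4 replicate 1 (adjusted p = 0.0568 and 0.127), where YUC2 gained one (0.0355). TAR2 also lost it without J0951/Col replicate 2 (0.0735), and ASB1 without J0951/Col replicate 1 or 3 or J0951/UAS-YUC4 replicate 2 (0.0948, 0.13 and 0.0774), and with median-of-ratios scaling or quantile normalization (0.0795 and 0.0607). YUC6 was 1 of 2 called lower, and 1 was called lower when any library other than J0951/Col replicate 1 was left out.

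The GH3 enzymes that conjugate auxin included 5 genes that rose. GH3.3 stood at 2.90, 2.43 and 2.80 FPKM in the control libraries and at 18.9, 21.4 and 25.2 FPKM in the transgenic ones. GH3.6 went from 13.1, 13.8 and 13.2 FPKM to 49.3, 61.4 and 64.7 FPKM, and GH3.2 from 11.4, 9.21 and 9.85 FPKM to 35.2, 43.7 and 41.4 FPKM. The lowest transgenic library was more than 2 times the highest control for each of these genes. They rose by 2.62 (SE 0.19), 2.04 (SE 0.13) and 1.88 (SE 0.10), with adjusted p of 6.48e-08, 2.21e-08 and 4.60e-09. GH3.5 and GH3.1 of the same family rose by 1.36 and 0.67 (adjusted p = 3.58e-08 and 0.000992). GH3.17, the most abundant GH3 gene of the control roots, was not called. It stood at 48.3, 47.3 and 52.5 FPKM against 40.7, 47.8 and 44.4 FPKM, with overlapping libraries (change -0.15, adjusted p = 0.155). In the transgenic libraries the means of GH3.6, GH3.5 and GH3.17 were 58.5, 44.8 and 44.3 FPKM. The oxidation route was not called, with DAO1 at 11.2, 8.63 and 10.02 FPKM against 9.33, 11.6 and 9.52 FPKM and DAO2 at 25.2, 23.5 and 31.2 FPKM against 32.1, 41.6 and 29.3 FPKM. The change of DAO2 was 0.35 with an SE of 0.26. Of 14 tested genes of auxin inactivation and release, 6 were called higher, the sixth being ILL2, an amidohydrolase that releases auxin from conjugates (change 0.22, adjusted p = 0.00442). The median of the list was 0.18.

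**Figure D1:**
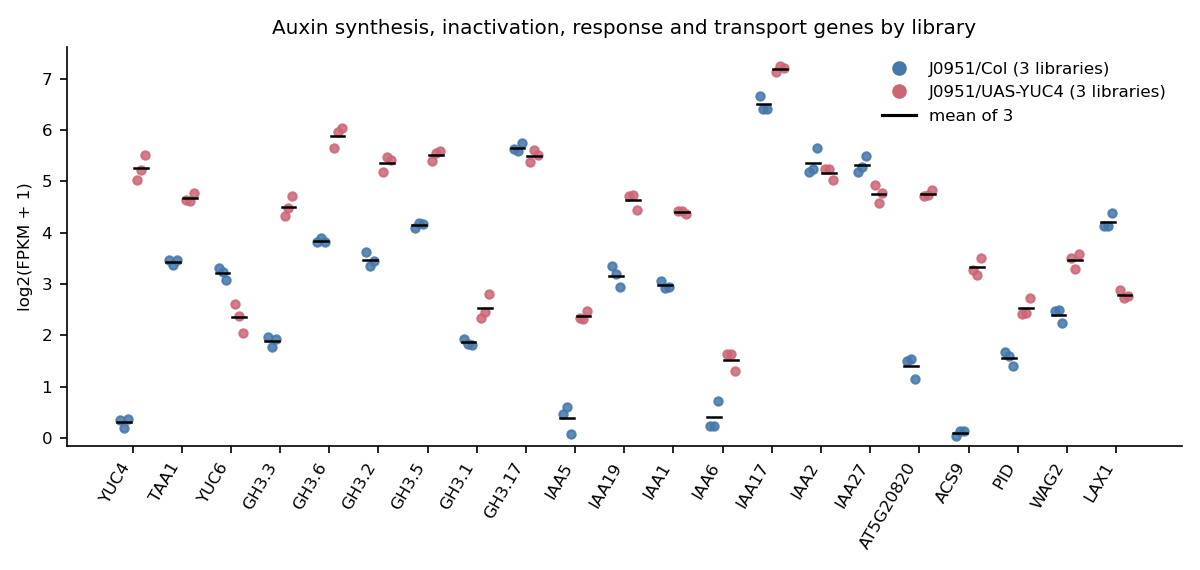
Levels of 21 auxin genes in each library, as log2(FPKM + 1) on the vertical axis, with J0951/Col in blue, J0951/UAS-YUC4 in red and a bar at the mean of 3. YUC4, 5 GH3 genes, 5 Aux/IAA genes, AT5G20820 and ACS9 lie higher in all 3 transgenic libraries, while YUC6, IAA27 and LAX1 lie lower and GH3.17 and IAA2 overlap.

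The Aux/IAA repressor family split. Of 27 tested members, 11 were called higher and 4 lower, with a median change of 0.15. IAA5 and IAA6 were under 1 FPKM in every control library. IAA5 stood at 0.39, 0.52 and 0.06 FPKM in the control libraries and 4.07, 4 and 4.59 FPKM in the transgenic ones, and IAA6 at 0.18, 0.18 and 0.65 against 2.1, 2.1 and 1.48 FPKM. IAA19 went from 9.14, 8.13 and 6.63 FPKM to 25.1, 25.8 and 20.7 FPKM, and IAA1 from 7.29, 6.62 and 6.67 FPKM to 20.3, 20.3 and 19.5 FPKM. None of these 4 genes overlapped between the genotypes, and they rose by 1.99, 1.12, 1.47 and 1.42 (adjusted p = 2.00e-06, 0.000111, 1.44e-07 and 9.77e-08). Among abundant members, IAA17 (AXR3) rose by 0.70 and IAA8 by 0.49 (adjusted p = 3.73e-05 and 6.69e-05). IAA17 stood at 100.2, 84.3 and 84.5 FPKM in the controls and at 139, 152 and 146 FPKM with the transgene. The most abundant member, IAA9, was not called, at 229.5, 256 and 247 FPKM against 266, 278 and 269 FPKM (change 0.15, SE 0.065). IAA2, which overlapped between the genotypes at 35.5, 37.1 and 49.1 and 36.8, 37.0 and 31.5 FPKM, was not called either (change -0.19). Lower levels were called for IAA27, at 35.2, 37.8 and 43.9 FPKM in the controls and 29.5, 23.0 and 26.3 FPKM in the transgenic libraries (change -0.55, adjusted p = 0.000286). IAA14 (SLR), the repressor of lateral root initiation, stood at 22.5, 21.3 and 20.4 FPKM against 15.7, 16.9 and 16.1 FPKM and fell by 0.38 (adjusted p = 0.00272). IAA13 also fell, by 0.37 (adjusted p = 0.0054).

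SAUR genes, short early auxin transcripts whose proteins promote cell expansion, were called in both directions. AT5G20820, annotated as SAUR-like, showed the largest change of the family, from 1.82, 1.90 and 1.23 FPKM to 25.2, 25.5 and 27.4 FPKM. It rose by 3.36 (SE 0.20, adjusted p = 1.22e-08). SAUR24 was listed at 0 in all 3 control libraries and at 1.18, 1.23 and 1.07 FPKM in the transgenic ones, and it passed the filter on low values only through these. SAUR29, a close relative, stood at 0.40, 0.40 and 0.73 FPKM against 2.22, 1.93 and 2.63 FPKM and rose by 1.11 (adjusted p = 3.25e-05). How the authors' counting split reads between such similar copies is not known. Lower calls fell on more abundant members. AT5G50760 stood at 80.1, 68.4 and 74.3 FPKM in the controls and at 38.1, 48.4 and 41.7 FPKM with the transgene, and fell by 0.79 (adjusted p = 5.59e-05). AT4G00880 fell by 0.59 and AT4G31320 by 0.47 (adjusted p = 0.000132 and 0.00129). Of 38 tested SAUR genes, 17 were called higher and 4 lower, and without the filter on low values the count called higher was 31. A member that is rare in the control is tested only where it is higher elsewhere, so the count of the tested members does not describe the family. The summed level of the list overlapped between the genotypes, at 381 to 409 FPKM and 387 to 394 FPKM.

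Receptors and response factors moved little. TIR1 stood at 46.7, 46.2 and 47.9 FPKM against 61.4, 57.6 and 65.4 FPKM and rose by 0.38 (adjusted p = 0.000842), and AFB5, a receptor of the same family, rose by 0.23 (adjusted p = 0.00608). ARF1 rose by 0.37 (adjusted p = 0.000223). ARF7 and ARF19, the factors of lateral root initiation, were not called, with changes of -0.19 and -0.09, and neither was ARF5 (0.17). With median-of-ratios scaling ARF7 was called lower (change -0.24, adjusted p = 0.0363). Calls in the higher direction numbered 6 of 18, where 23.8% of all tested genes were called higher. They numbered 3 without J0951/Col replicate 1 or without J0951/UAS-YUC4 replicate 3.

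Auxin transport genes went both ways, with 5 of 20 called higher and 5 lower, where 23.8% and 16.7% of all tested genes were. The AGC kinases that phosphorylate PIN exporters rose most. PID (PINOID) stood at 2.18, 2.03 and 1.63 FPKM in the controls and 4.30, 4.40 and 5.65 FPKM with the transgene, and WAG2 at 4.59, 4.61 and 3.74 against 10.3, 8.84 and 11.0 FPKM. Neither gene overlapped, and they rose by 0.97 and 1.06 (adjusted p = 2.00e-05 and 2.49e-06). Of the PIN exporters, PIN7 went from 22.8, 22.6 and 22.8 to 30.7, 30.5 and 28.9 FPKM and rose by 0.39 (adjusted p = 0.000391). PIN2, PIN3 and PIN4 were not called, with changes of 0.13, -0.02 and 0.21. The exporter ABCB19 rose by 0.40 (adjusted p = 0.0012). LAX1, an importer of the AUX1 family, fell the most, from 16.4, 16.4 and 19.8 FPKM to 6.37, 5.6 and 5.83 FPKM (change -1.42, SE 0.14, adjusted p = 1.49e-06). Lower calls also fell on PILS3 and PILS5, which hold auxin in the endoplasmic reticulum. PILS3 stood at 24.2, 23.2 and 24.6 FPKM against 15.3, 14.9 and 12.4 FPKM and PILS5 at 319, 292 and 317 against 219, 231 and 194 FPKM, and they fell by 0.72 and 0.53 (adjusted p = 5.77e-06 and 0.000635). ABCB4 of the root epidermis fell by 0.51 (adjusted p = 0.00336).

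Genes of lateral root initiation and emergence went both ways. EXPA17, an expansin of lateral root emergence, fell from 26.3, 32.4 and 29.9 FPKM to 7.74, 5.93 and 7.10 FPKM (change -1.95, SE 0.24, adjusted p = 1.36e-05). PUCHI, LBD18 and MAKR4 overlapped between the genotypes, with changes of 0.08, -0.04 and 0.04 and no call. LBD16, LBD17 and LBD33 rose by 0.32, 0.34 and 0.43 (adjusted p = 0.0163, 0.0303 and 0.0311). LBD29 and GATA23 fell by 0.37 and 0.43 (adjusted p = 0.0256 and 0.0452). Each of these LBD and GATA23 calls was lost in a fit with a library left out. EXPA14 and HAE, the receptor kinase of cell separation, rose by 0.42 and 0.40 (adjusted p = 0.00596 and 0.00404). Of 12 tested genes, 5 were called higher and 3 lower, and 3 were called higher without J0951/Col replicate 3. Without J0951/Col replicate 1 or J0951/UAS-YUC4 replicate 3, 1 was called lower. Among auxin-regulated transcription factors, HAT2 and HAT1 rose by 0.49 and 0.34 (adjusted p = 7.38e-05 and 0.00349). TMO5, which promotes vascular cell divisions downstream of ARF5, stood at 23.5, 27.6 and 25.8 FPKM against 15.5, 15.0 and 16.2 FPKM and fell by 0.68 (adjusted p = 1.70e-05). NAC1 fell by 0.54 (adjusted p = 0.000342). Of 12 such factors 4 were called higher and 2 lower, with 2 higher without J0951/Col replicate 2 or without J0951/UAS-YUC4 replicate 2 or 3.

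Of the other hormones, ethylene synthesis held 1 of the largest rises. ACS9, an ACC synthase, which makes the precursor of ethylene, stood at 0.03, 0.10 and 0.10 FPKM in the control libraries and at 8.71, 8.06 and 10.4 FPKM in the transgenic ones. It rose by 3.22 (SE 0.15, adjusted p = 7.58e-10). Its family members ACS11, ACS6 and ACS2 rose by 0.73, 0.60 and 0.42 (adjusted p = 0.000231, 0.00633 and 0.00934). The receptors ERS2 and ETR2 rose by 0.70 and 0.55 (adjusted p = 0.000389 and 0.0012). Of 24 tested ethylene genes 9 were called higher, with a median of 0.16.

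Cytokinin genes were called in both directions. Among type-A response regulators, which are induced by cytokinin and dampen its signal, ARR3 went from 15.6, 15.9 and 16.2 FPKM to 42.9, 42.3 and 43.5 FPKM and ARR15 from 0.56, 0.37 and 0.51 to 3.13, 3.8 and 3.95 FPKM. ARR7, the closest relative of ARR15, went the other way, from 15.2, 13.3 and 14.3 FPKM to 5.19, 3.70 and 4.85 FPKM. The groups did not overlap for any of the 3 genes, whose changes were 1.38, 1.64 and -1.46 (adjusted p = 2.34e-06, 6.91e-07 and 2.05e-06). ARR4, the most abundant, was not called (change 0.08). Among the oxidases that degrade cytokinin, CKX3 rose by 1.43 while CKX4 fell by 0.88 (adjusted p = 1.49e-07 and 0.000998). IPT5 and LOG7 of cytokinin synthesis fell by 0.59 and 0.48 (adjusted p = 0.000719 and 0.000286). In all, 8 of 29 tested genes were called higher and 7 lower, where 23.8% and 16.7% of all tested genes were.

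Jasmonate and gibberellin genes were called mostly in the higher direction. Of 18 tested jasmonate genes 12 were called higher and the others were not called (median 0.41). OPR3, an enzyme of jasmonate synthesis, went from 21.5, 23.1 and 20.8 FPKM to 31.6, 33.2 and 31.5 FPKM, and the repressor JAZ3 from 11.8, 13.7 and 11.4 to 19.98, 21.6 and 20.4 FPKM. They rose by 0.54 and 0.71 (adjusted p = 6.72e-05 and 7.47e-06). JAZ12, the most abundant repressor of the list, was not called (change -0.07). Of 16 gibberellin genes 8 were called higher, among them the DELLA repressors RGL2, RGL1 and GAI, by 0.69, 0.55 and 0.39 (adjusted p = 3.96e-05, 2.67e-05 and 0.0014). The receptors GID1A, GID1B and GID1C were not called, with changes between -0.07 and 0.06. Abscisic acid genes were called higher in 8 of 16, and in 4 or 5 without J0951/Col replicate 2 or without J0951/UAS-YUC4 replicate 2 or 3. The phosphatase ABI1 rose by 0.72 (adjusted p = 2.53e-06). Of the 10 brassinosteroid genes, 1 was called (BES1, change 0.34, adjusted p = 0.00972), and 3 without J0951/UAS-YUC4 replicate 1. DLK2, a relative of the strigolactone receptor, fell from 18.4, 24.6 and 26.8 FPKM to 11.95, 11.5 and 10.4 FPKM (change -0.97, adjusted p = 7.37e-06).

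**Figure D2:**
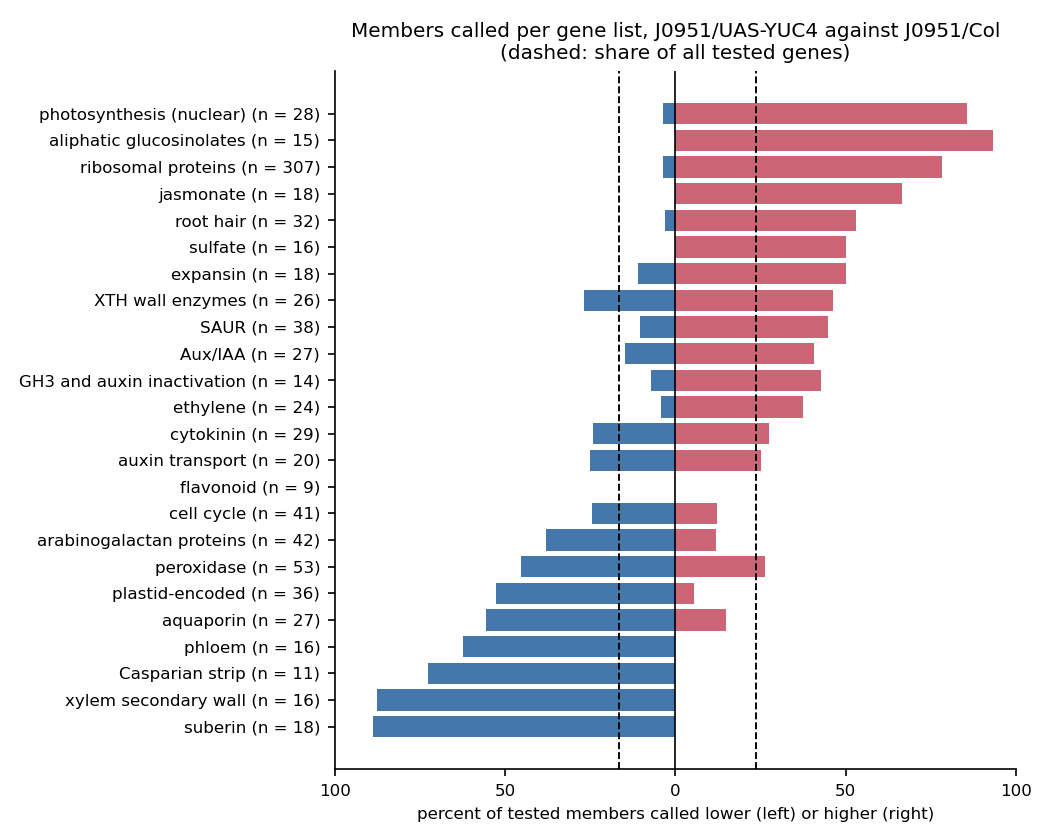
Share of the tested members of each gene list called higher (red, right) or lower (blue, left) in J0951/UAS-YUC4 against J0951/Col, in percent, with dashed lines at the shares of all tested genes (23.8% and 16.7%). Suberin, xylem and Casparian strip lists reach far to the left, while ribosomal protein, aliphatic glucosinolate and photosynthesis lists reach far to the right.

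Most ribosomal protein genes rose, each by a small amount. Of 307 tested ribosomal protein genes, 240 were called higher and 11 lower. The middle of their changes, from the 25th to the 75th percentile, ran from 0.272 to 0.458 around a median of 0.389, where all tested genes ran from -0.158 to 0.229 around 0.052. Their summed level was 56300 to 59360 FPKM in the control libraries and 74110 to 81130 FPKM in the transgenic ones. AT3G56020, of the cytosolic large subunit, stood at 271, 212 and 204 FPKM against 326, 330.2 and 382 FPKM and rose by 0.60 (SE 0.12, adjusted p = 0.000793). AT4G12600, a protein of the L7Ae family, went from 116, 122 and 118 FPKM to 175, 187 and 189 FPKM (change 0.62, adjusted p = 0.000385). The members called lower included SSR16 and RPL4, which belong to organelle-type ribosomes. SSR16 stood at 123, 122 and 127 FPKM against 85.2, 81.6 and 90.07 FPKM and fell by 0.53, and RPL4 fell by 0.33 (adjusted p = 0.000434 and 0.00117). The count called higher lay between 200 and 244 under the alternatives, and that called lower was 5 to 7 without J0951/Col replicate 2 or 3 or without J0951/UAS-YUC4 replicate 2 or 3. FPKM is a share of each library, and the 10 most abundant genes took 5.57% to 5.98% of summed FPKM in the controls and 3.58% to 3.86% in the transgenic libraries. The part of that change of composition in the ribosomal values was not tested.

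**Figure D3:**
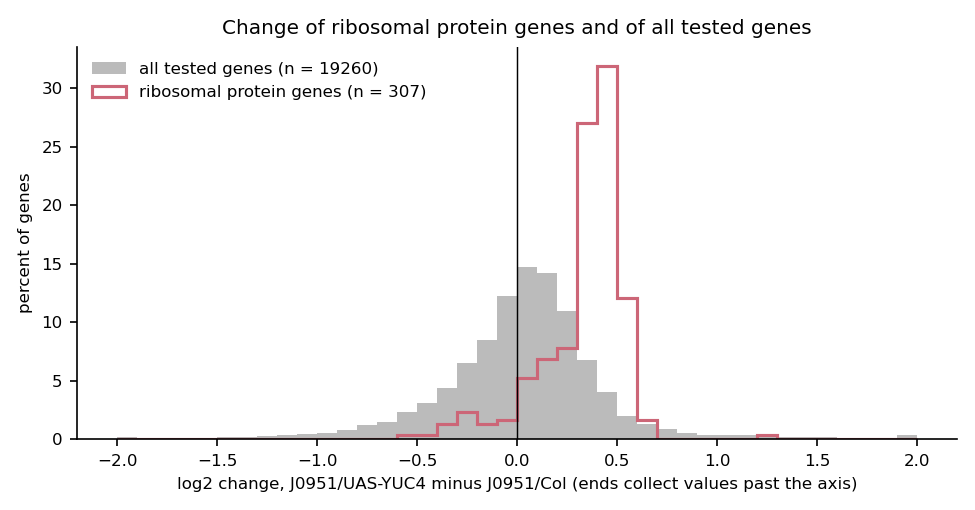
Distribution of log2 changes (J0951/UAS-YUC4 minus J0951/Col) of 307 ribosomal protein genes (red outline) and of 19260 tested genes (grey), in percent of each set per bin of 0.1. The ribosomal set peaks between 0.3 and 0.5, to the right of the grey peak near 0.

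Cell cycle genes were called in both directions, 5 of 41 higher and 10 lower (median -0.04). Without J0951/UAS-YUC4 replicate 3 the counts were 3 and 5, and without replicate 1 of that genotype 3 were called higher. CYCD3;2, a D-type cyclin that starts the cycle, stood at 19.0, 20.1 and 18.9 FPKM against 26.8, 24.6 and 28.6 FPKM and rose by 0.44 (adjusted p = 0.000635). CYCD1;1 fell from 9.93, 11.3 and 11.5 FPKM to 6.65, 6.37 and 5.82 FPKM (change -0.71, adjusted p = 9.67e-05). Mitotic CYCB1;4 and CYCB2;2 fell by 0.36 and 0.43 (adjusted p = 0.00173 and 0.00217), and CYCB2;3 and CYCB2;4 by 0.32 and 0.33 (adjusted p = 0.0233 and 0.00206). The related CYCB1;1, CYCB1;2, CYCB1;3 and CYCB2;1 were not called, with changes of 0.19, -0.02, -0.12 and -0.11. The meristem regulators SHR and SCR were not called, and SCR stood at 19.2, 19.3 and 18.3 FPKM against 18.6, 19.4 and 19.0 FPKM (adjusted p = 0.969). RGI1 and RGI2, receptors of root meristem growth factor peptides, rose by 0.44 and 0.40 (adjusted p = 0.00279 and 0.00094).

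Of 32 tested root hair genes 17 were called higher, with a median of 0.38, and the summed level was 711 to 856 FPKM in the controls and 1225 to 1292 FPKM with the transgene. PRP1, a proline-rich wall protein of root hairs, stood at 29.8, 26.2 and 27.6 FPKM in the control libraries and 88.7, 76.6 and 83.3 FPKM in the transgenic ones. RHS13 went from 123, 101 and 86.0 FPKM to 228, 232 and 228 FPKM. Neither gene overlapped between the genotypes, and they rose by 1.54 and 1.15 (SE 0.28 and 0.19, adjusted p = 0.000479 and 0.000257). EXPA7, the expansin of hair initiation, rose by 0.53 (adjusted p = 0.00183). EXPA18, LRX1 and LRL3, also hair genes, were not called, with changes of 0.35, 0.28 and -0.01, and EXPA18 was called in a fit of the 6 libraries alone (adjusted p = 0.0106). Among regulators of hair and non-hair fates, 5 of 10 were called higher, on both sides. CPC, which promotes the hair fate, stood at 8.06, 7.55 and 8.28 FPKM against 12.4, 11.2 and 11.3 FPKM, and GL2, which represses it, at 7.14, 7.47 and 7.78 against 10.3, 10.6 and 11.2 FPKM. They rose by 0.49 and 0.47 (adjusted p = 0.000201 and 0.000392), while WER was not called (change 0.09). SCM, the receptor kinase that positions these fates, fell by 0.61 (adjusted p = 0.00201). In whole roots, a change in the number of cells of a type and a change in RNA per cell cannot be told apart. Root cap genes were called higher in 6 of 9, but in 1 without J0951/Col replicate 2 and in 2 without J0951/UAS-YUC4 replicate 3.

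In the endodermal barrier the calls were lower. Suberin genes were called lower in 16 of 18, and the other 2 were not called, with a median of -0.79. FACT, which makes alkyl caffeates of the suberised wall, stood at 60.7, 34.6 and 58.5 FPKM in the control libraries and 20.1, 19.3 and 17.3 FPKM in the transgenic ones. MYB93, a transcription factor of the endodermis, went from 20.1, 23.56 and 22 FPKM to 10.3, 9.79 and 6.59 FPKM. All transgenic libraries lay below all controls, and the genes fell by 1.35 and 1.23 (adjusted p = 0.000139 and 4.78e-05). ASFT, the feruloyl transferase of suberin, overlapped at 46.5, 40.8 and 40.2 and 34.8, 41.7 and 33.4 FPKM and was not called (change -0.21). Casparian strip genes were called lower in 8 of 11 (median -0.62). CASP1, the scaffold of the strip, stood at 240.1, 175 and 207 FPKM against 122, 117 and 107 FPKM, and ESB1 at 153, 127 and 117 against 91.6, 81.3 and 75.04 FPKM. They fell by 0.83 and 0.66 (adjusted p = 3.65e-05 and 0.000213). ESB1 overlaps a gene on the opposite strand, whose reads cannot be told apart here. MYB36, the transcription factor that switches on the CASP genes, was not called. It stood at 12.7, 11.8 and 12.7 FPKM against 11.2, 13.2 and 11.1 FPKM, with overlapping libraries (change -0.07, SE 0.077, adjusted p = 0.5). SGN1 and GSO1, the kinases that keep the strip intact, were not called, with changes of -0.03 and -0.23. GSO1 was called lower with median-of-ratios scaling (-0.276, adjusted p = 0.0465) and when the 6 J0951 libraries were fitted alone (0.0432).

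**Figure D4:**
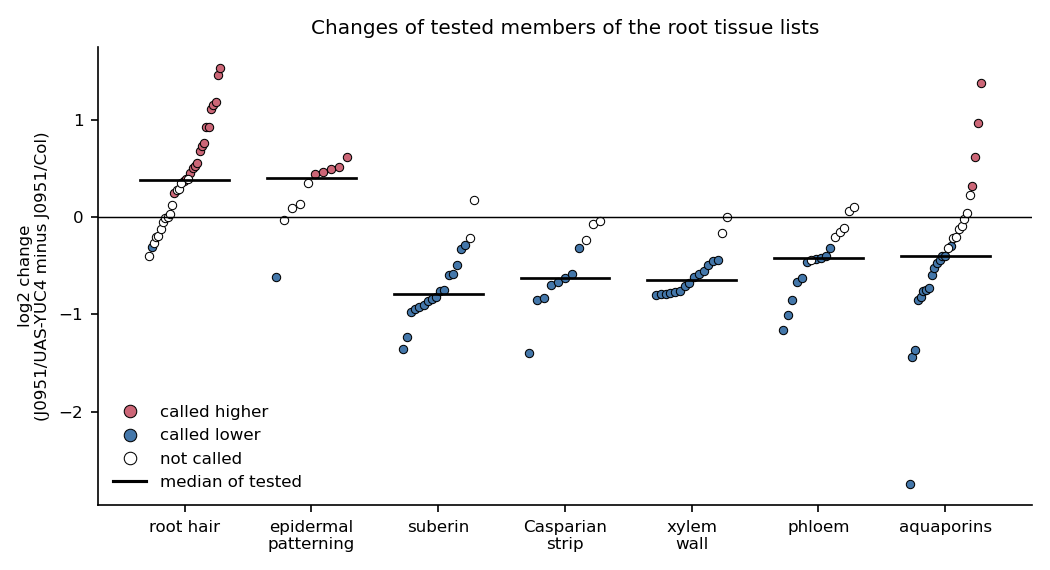
Log2 change (J0951/UAS-YUC4 minus J0951/Col) of each tested member of 7 root gene lists, ordered within a list, with red for called higher, blue for called lower, white for not called and a bar at the median. Root hair members lie mostly above 0, whereas suberin, Casparian strip, xylem and phloem members lie almost wholly below it.

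Vascular genes were called lower in most members. Xylem secondary wall genes were called lower in 14 of 16, with a median of -0.65, and phloem genes in 10 of 16, with a median of -0.42. TED6, which acts in the thickening of vessel walls, stood at 61.7, 54.5 and 59.9 FPKM in the controls and 39.9, 33.4 and 27.8 FPKM with the transgene. MYB46, a master regulator of the secondary wall, went from 3.74, 3.4 and 4.08 FPKM to 1.92, 1.99 and 1.35 FPKM. They fell by 0.80 and 0.79 (adjusted p = 3.26e-05 and 0.00155), and neither overlapped. The related MYB83 was low, at 0.73, 1.22 and 0.70 and 0.60, 0.57 and 0.87 FPKM and was not called. MC9, a metacaspase of dying xylem cells, was not called, at 43.9, 35.2 and 44.5 and 40.0, 40.4 and 42.5 FPKM (adjusted p = 0.994). In the phloem, SEOR2, a sieve element protein, went from 17.8, 20.03 and 19.0 FPKM to 12.1, 10.9 and 11.7 FPKM, and APL, the phloem identity factor, fell by 0.46 (change of SEOR2 -0.67, adjusted p = 5.53e-05 and 0.00042). SWEET11, a sucrose exporter, ranged over 30.7, 54.3 and 46.6 FPKM and 24.5, 31.9 and 38.8 FPKM and was not called.

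Aquaporins, the water channels of membranes, were abundant, and their summed level was lower with the transgene. Summed FPKM of the list was 10920 to 12490 in the control libraries and 7740.0 to 8245 in the transgenic ones, with 15 of 27 tested members called lower and 4 higher. TIP2;3, a tonoplast aquaporin, stood at 209, 264 and 254 FPKM against 37.2, 33.4 and 34.6 FPKM, and TIP2;2 at 968, 843 and 927 against 340.5, 335 and 334 FPKM. The transgenic libraries agreed closely with each other, and the genes fell by 2.75 (SE 0.17) and 1.43 (SE 0.10, adjusted p = 1.70e-08 and 6.48e-08). At the plasma membrane, PIP2B and PIP1A fell by 0.82 and 0.85 (adjusted p = 3.85e-05 and 3.21e-05). PIP2E was an exception, at 6.52, 4.02 and 3.89 FPKM against 14.2, 13.9 and 13.5 FPKM, and rose by 1.38 (adjusted p = 9.93e-05). Of the 10 most abundant genes of the control roots, 7 were called lower. PYK10, a beta-glucosidase of endoplasmic reticulum bodies, went from 7705, 7989 and 7569 FPKM to 4236, 4365 and 3833 FPKM, and GRP9, a glycine-rich protein, from 2685, 2354 and 2664 to 1056, 876 and 984 FPKM. They fell by 0.91 and 1.402 (adjusted p = 6.62e-06 and 8.30e-08). Under quantile normalization PYK10, DR4 and PBP1 of the 7 lost the call, with changes of -0.19, -0.358 and 0.0 (adjusted p = 0.0833, 0.0552 and 1.0). MT1A, GRP7 and TIP2 of these 10 were not called, with changes of -0.32, -0.23 and -0.21, and without J0951/Col replicate 3 the change of MT1A was -0.435 (adjusted p = 0.0355). With quantile normalization MT1A and GRP7 turned to 0.604 and 0.522.

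Wall-modifying families were called in both directions. Of 18 expansins 9 were called higher and 2 lower. EXPA12 stood at 0.14, 0.38 and 0 FPKM in the controls and 7.73, 6.57 and 11.3 FPKM with the transgene, and EXPA1 at 11.8, 8.97 and 10.8 against 24.9, 27.2 and 24.9 FPKM. They rose by 3.005 and 1.22 (adjusted p = 1.12e-08 and 0.000304). XTH enzymes, which cut and rejoin xyloglucan, were called higher in 12 of 26 and lower in 7, or in 4 without J0951/Col replicate 2 or J0951/UAS-YUC4 replicate 3. XTH5 went from 15.0, 14.5 and 15.5 FPKM to 40.9, 39.1 and 50.8 FPKM (change 1.47, adjusted p = 1.19e-06), and XTH21 from 27.3, 29.8 and 26.7 FPKM to 11.3, 12.2 and 10.7 FPKM (change -1.22, adjusted p = 3.48e-07). Genes annotated as peroxidase superfamily proteins, nearly all of them class III peroxidases, which act on wall phenolics and reactive oxygen, were called lower in 24 of 53 and higher in 14, and their summed level was 8497 to 9468 FPKM in the controls and 5263 to 6088 FPKM in the transgenic libraries. DOX1, an alpha-dioxygenase, shares that annotation and is 1 of those called lower. The count called higher includes PRX52, at 0, 0 and 0.04 FPKM against 2.13, 3.93 and 1.85 FPKM. PRX52 passed the filter on low values only through the J0951/UAS-YUC4 libraries. AT5G64120 stood at 576, 632 and 471 FPKM against 60.7, 58.4 and 56.1 FPKM, and AT3G01190 at 451, 474 and 477 against 103, 95.6 and 96.8 FPKM. They fell by 3.23 (SE 0.15) and 2.24 (SE 0.14, adjusted p = 7.58e-10 and 1.22e-08). AT3G49960 of the same family rose, from 34.8, 32.8 and 30.5 FPKM to 89.2, 91.3 and 90.4 FPKM (change 1.44, adjusted p = 2.63e-05). Arabinogalactan proteins were called lower in 16 of 42 and higher in 5, or higher in 3 without J0951/Col replicate 3 or J0951/UAS-YUC4 replicate 2. Of 9 genes of primary wall cellulose 4 were called lower (CESA5, KOR1, CTL1 and CESA1), and 2 without J0951/Col replicate 2. The cellulose synthase CESA5 fell by 0.47 (adjusted p = 4.44e-05), whereas CESA3 and CESA6 were not called, with changes of -0.09 and -0.05.

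Among genes of nutrient use, nitrate reductases rose while genes of nitrate loading and storage fell. Of sulfate genes 8 of 16 were called higher, and of nitrate genes 6 of 19 were called higher and 4 lower. The transporter SULTR2;1 stood at 3.47, 2.58 and 3.05 FPKM against 28.7, 32.7 and 26.3 FPKM and rose by 2.91 (SE 0.22, adjusted p = 9.77e-08). SDI1, a marker of sulfur shortage, rose by 1.43 (adjusted p = 9.78e-05). SULTR1;2, a carrier of sulfate uptake, was not called (change -0.40, adjusted p = 0.0722), but was called lower without J0951/Col replicate 1 or J0951/UAS-YUC4 replicate 2 (-0.514 and -0.524, adjusted p = 0.0409 and 0.0367). SULTR1;1 of the same family rose, from 2.37, 2.28 and 1.43 FPKM to 7.99, 6.96 and 6.85 FPKM (change 1.46, adjusted p = 2.18e-06). In nitrate assimilation, NIA1 went from 28.1, 14.6 and 29.1 FPKM to 85.5, 83.7 and 82.5 FPKM, and NIA2 from 90.4, 71.1 and 85.7 to 179.5, 177 and 184 FPKM. Both nitrate reductases rose, by 1.83 and 1.13 (adjusted p = 0.00106 and 3.73e-05). NRT1.5, which loads nitrate into the xylem, fell from 791, 730.2 and 816 FPKM to 430.2, 411 and 372 FPKM (change -0.95, adjusted p = 0.000613), and CLC-A, which stores nitrate in the vacuole, fell by 0.68 (adjusted p = 0.000383). Phosphate genes were called in both directions. SPX1, PS2 and RNS1 rose by 1.28, 1.28 and 2.26 (adjusted p = 3.97e-06, 7.03e-07 and 1.57e-05). SPX4, SQD1 and PHT1;9 rose by 0.35, 0.36 and 0.42 (adjusted p = 0.000678, 0.00107 and 0.0298). PHT1;1, WRKY75 and PHO1 were called lower, with changes of -0.67, -0.40 and -0.32 (adjusted p = 0.00206, 0.0288 and 0.0386). SPX2 was not called (change 0.07). For iron, NAS2 rose by 1.87 while FIT, the regulator of iron uptake, fell by 0.67 (adjusted p = 1.61e-05 and 0.00583).

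Glucosinolate genes were called higher in nearly all members of the aliphatic list and in both directions in the indolic list. Of 15 aliphatic (methionine-derived) genes 14 were called higher, with a median of 0.80. BCAT4, which starts side-chain elongation, stood at 10.8, 14.7 and 8.06 FPKM in the controls and 83.3, 52.7 and 64.3 FPKM with the transgene. CYP83A1 of the core pathway went from 8.19, 9.02 and 5.81 FPKM to 50.4, 34.4 and 41.8 FPKM. The lowest transgenic library was more than 3 times the highest control in both, and they rose by 2.49 and 2.32 (SE 0.34 and 0.27, adjusted p = 4.25e-05 and 8.76e-06). The indolic, tryptophan-derived genes went both ways. CYP79B2 and CYP79B3 both turn tryptophan into indole-3-acetaldoxime, yet CYP79B2 stood at 89.8, 98.6 and 88.8 FPKM against 133, 138 and 127 FPKM and CYP79B3 at 131, 190.5 and 165 against 115, 94.6 and 93.9 FPKM. Their changes were 0.51 and -0.67 (adjusted p = 0.00671 and 0.00143). IGMT1, which methylates the indole ring, fell from 362, 372 and 416 FPKM to 157, 171 and 185 FPKM (change -1.16, adjusted p = 3.15e-06). Indolic genes were called higher in 8 of 17 and lower in 4, where 23.8% and 16.7% of all tested genes were. SUR1, SOT16, MYB34 and MYB51 of this list rose by 0.29, 0.40, 0.36 and 0.58 (adjusted p = 0.0121, 0.00409, 0.0286 and 0.00373). Higher calls in the list numbered 4 or 5 without J0951/Col replicate 3 or without J0951/UAS-YUC4 replicate 1 or 2. CYP71A12, of the camalexin branch, stood at 0.10, 0.10 and 0.07 FPKM against 5.6, 3.74 and 3.92 FPKM and rose by 2.30 (adjusted p = 8.66e-09). It is in the count called higher, and it passed the filter on low values only through the J0951/UAS-YUC4 libraries.

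Smaller sets of stress and clock genes were called in part. Of 10 hypoxia genes 4 were called higher. ADH1, alcohol dehydrogenase, stood at 0.81, 0.56 and 0.62 FPKM against 7.59, 3.03 and 2.22 FPKM and HB1, a haemoglobin, at 4.88, 4.64 and 4.45 against 12.1, 8.31 and 8.30 FPKM. Transgenic replicate 1 was the highest library for both, and they rose by 1.54 and 0.88 (adjusted p = 0.000231 and 0.00243). Of 10 salicylate genes 4 were called higher, among them CBP60G, a regulator of salicylate synthesis, at 0.09, 0.18 and 0.14 FPKM against 1.46, 1.86 and 2.70 FPKM (change 1.38, adjusted p = 6.91e-07). CBP60G passed the filter on low values only through the J0951/UAS-YUC4 libraries, and the count includes it. Circadian genes were called higher in 4 of 16 and lower in 4, where 23.8% and 16.7% of all tested genes were. ELF4, an evening gene of the clock, stood at 197, 173 and 188 FPKM against 132, 88.2 and 97.4 FPKM, and the morning gene RVE1 at 3.99, 4.46 and 4.73 against 2.04, 2.11 and 2.57 FPKM. Both fell, by 0.83 and 0.74 (adjusted p = 0.000196 and 4.44e-05). GI, PRR5, FKF1 and PRR9 rose, by 0.63, 0.44, 0.30 and 0.81 (adjusted p = 0.00233, 0.00368, 0.0147 and 0.0175).

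Most genes of shoot photosynthesis rose in these root samples, and they varied between libraries. Of 28 nuclear photosynthesis genes 24 were called higher, with a median of 1.25 and a summed level of 533 to 817 FPKM in the controls and 1163 to 1588 FPKM in the transgenic libraries. RBCS3B, a small subunit of Rubisco, stood at 0.69, 0.26 and 0.32 FPKM against 12.6, 15.4 and 21.7 FPKM. CAB3, a light-harvesting protein, stood at 3.89, 1.97 and 3.59 FPKM against 15.2, 20.5 and 41.4 FPKM, highest in transgenic replicate 3. Both rose, by 3.61 and 2.60 (adjusted p = 1.89e-05 and 3.44e-05). RBCS1A, the most abundant small-subunit gene, was not called, at 71.3, 80.0 and 85.2 FPKM against 73.2, 87.7 and 110.0 FPKM (change 0.18). Of 8 greening genes 3 were called higher (GUN5, CH1 and GUN4), by 0.50, 0.57 and 0.58 (adjusted p = 0.0132, 0.00144 and 0.0197), and 1 without J0951/Col replicate 2 or J0951/UAS-YUC4 replicate 2. GUN4 lost the call without J0951/Col replicate 3 (adjusted p = 0.0631) and GUN5 without J0951/UAS-YUC4 replicate 3 (0.0764). HY5 and HEMA1 were not called, with changes of -0.04 and 0.11. CAB1, CAB2 and CAB3 are neighbours, as are RBCS1B, RBCS2B and RBCS3B, and values of such near-identical copies are uncertain as to the copy. The part of shoot tissue in these levels was not tested.

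Plastid-encoded genes were called lower in 19 of 36 tested members (median -0.76). The 19 include pairs of loci with identical values, ATCG00905 with ATCG01230 and ATCG00900 with ATCG01240. ATCG01020 and ATCG00330 were called higher, by 1.03 and 0.76 (adjusted p = 0.00181 and 0.0258). The share of plastid-encoded genes in summed FPKM was 0.0427% to 0.0677% in the controls and 0.0267% to 0.0361% in the transgenic libraries. In the run of ribosomal genes from ATCG00760 to ATCG00810, ATCG00780 stood at 19.2, 31.1 and 42.1 FPKM in the controls and 2.52, 4.34 and 1.13 FPKM with the transgene, and ATCG00800 at 9.12, 12.7 and 26.2 against 0.83, 2.70 and 0.90 FPKM. Control replicate 3 was the highest library for both. They fell by 3.15 and 2.73 (adjusted p = 5.42e-06 and 0.000128). The nuclear genes AT3G05900, a neurofilament-like protein, and AT5G16730, of the weak chloroplast movement under blue light family, showed the same order of libraries as ATCG00780. AT3G05900 stood at 31.9, 38.0 and 55.1 FPKM against 4.65, 9.34 and 2.33 FPKM and AT5G16730 at 14.4, 15.2 and 25.2 against 2.32, 5.19 and 2.02 FPKM. They fell by 2.84 and 2.24 (adjusted p = 1.15e-05 and 2.66e-05). AT3G05900 lies wholly within a gene on the opposite strand.

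Some seed transcripts were higher in the transgenic libraries, at unequal levels. The seed list was added after its values were seen, and its members are given as levels, apart from ICL, which was also among the 20 largest rises. CRU1 (cruciferin, a storage protein) stood at 0, 0.12 and 0 FPKM in the controls and 0.09, 12.4 and 12.3 FPKM in the transgenic libraries, and the oil body protein OLEO2 at 0, 0.16 and 0 against 0.42, 3.2 and 2.58 FPKM. ICL, the isocitrate lyase of seed oil use, stood at 0.98, 0.80 and 0.86 FPKM against 5.03, 15.5 and 28.5 FPKM. AT5G62210, annotated as embryo-specific, stood at 1.78, 1.62 and 1.29 FPKM against 10.2, 20.6 and 24.7 FPKM. In these 4 genes transgenic replicate 1 was the lowest of its genotype. For CRU1 it lay within the control range, and for the other 3 above it. MLS, malate synthase, the partner of ICL in the glyoxylate cycle, stood at 23.63, 22.4 and 22.8 FPKM against 24.0, 24.5 and 29.8 FPKM. SESA1 and SESA3, seed albumins, were listed at 0 in all 6 libraries. ICL and AT5G62210 rose by 2.93 (SE 0.46) and 2.85 (SE 0.51, adjusted p = 0.000142 and 0.000427), and ICL by 3.55 without J0951/UAS-YUC4 replicate 1. The part of seed remnants or plant age in the photosynthesis, plastid and seed values was not tested.

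**Figure D5:**
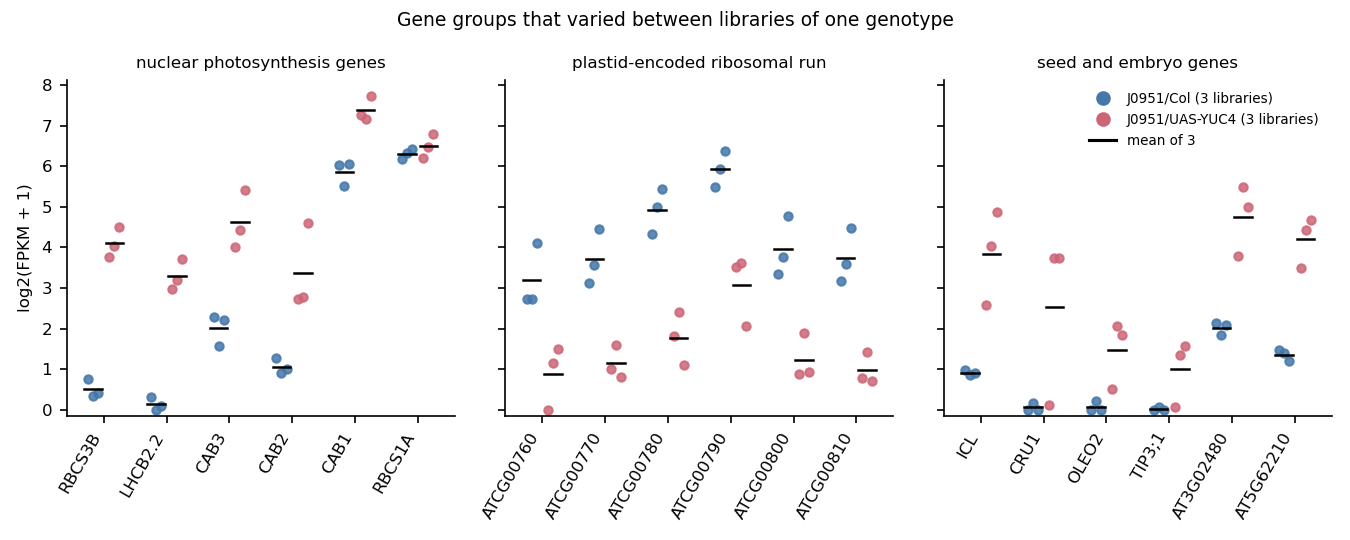
Levels by library, as log2(FPKM + 1), of 6 nuclear photosynthesis genes, 6 plastid-encoded ribosomal genes and 6 seed or embryo genes, with J0951/Col in blue, J0951/UAS-YUC4 in red and a bar at the mean of 3. The seed genes split the transgenic libraries, with replicate 1 lowest, and the plastid genes spread the controls, with replicate 3 highest.

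Among called genes with a mean of at least 5 FPKM in the higher genotype, the largest rise after YUC4 was in ASN1, the asparagine synthetase of nitrogen remobilisation and of sugar-starved tissue, at 0.41, 0.44 and 0.57 FPKM against 31.8, 20.1 and 25.4 FPKM (change 4.16, SE 0.31, adjusted p = 8.66e-08). Of 13 sugar starvation genes 2 were called higher, and DIN10 was not called (change 0.17). BGLU30 (DIN2) rose by 1.83 (adjusted p = 7.04e-08), and it passed the filter on low values only through the J0951/UAS-YUC4 libraries. MLP28, a latex-like protein, rose by 3.73, and UMAMIT35, an amino acid transporter family member, by 3.12 (adjusted p = 8.89e-06 and 1.97e-06). TCH3, a calmodulin-like touch gene, went from 4.20, 4.67 and 4.71 FPKM to 40.4, 40.2 and 30.9 FPKM (change 2.78, adjusted p = 2.21e-08). The largest fall was listed for AT1G21313, at 731, 559 and 806 FPKM against 273, 28.6 and 27.9 FPKM (change -3.49, SE 0.69), and the change was -4.56 without J0951/UAS-YUC4 replicate 1. Transgenic replicate 1 lay far above the other transgenic libraries. This gene lies wholly within EXT3 on the opposite strand, and EXT3, an extensin of the wall, stood at 6542, 6856 and 5321 FPKM against 3049, 2472 and 2332 FPKM, so the reads cannot be assigned to either strand here. AIR1, a cell wall protein first named for its induction by auxin in root cultures, fell from 298, 342 and 349.9 FPKM to 71.9, 78.6 and 60.01 FPKM (change -2.22, adjusted p = 7.51e-07). Its near-identical neighbour AT4G12545 fell by 2.30 (adjusted p = 2.68e-08), and both overlap genes on the opposite strand.

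Runs of at least 3 adjacent genes called in 1 direction with at least 2-fold changes numbered 6, and all were higher. One held ZFP2, XTH12 and XTH13. ZFP2, a zinc finger gene, stood at 0.04, 0.04 and 0.18 FPKM against 6.64, 9.67 and 10.2 FPKM and rose by 3.16 (adjusted p = 4.60e-09), and XTH12 and XTH13 rose by 1.82 and 1.72 (adjusted p = 1.39e-06 and 3.73e-06). Another held AT14A, AT3G28310 and AT3G28320, of which AT3G28320, an uncharacterised gene, stood at 2.11, 1.01 and 1.05 FPKM against 20.8, 24.3 and 20.6 FPKM (change 3.29, adjusted p = 6.91e-07). The others were the 3 CAB genes, the 3 RBCS genes, 4 lipid-transfer-like genes led by EARLI1, and AT5G15950 with KIN1 and KIN2, and most of these are families of similar copies. KIN1 lost the call without J0951/Col replicate 2 or 3 (adjusted p = 0.0636 and 0.0559). It also lost it without J0951/UAS-YUC4 replicate 2 or 3 (0.0539 and 0.0739), so its run did not hold in these fits.

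The same J0951/UAS-YUC4 libraries were set against the 4 remaining UAS-YUC4 genotypes, averaged, in which the driver line differs as well, so that YUC4 level, place of expression and driver line cannot be told apart. In that comparison 9784 of 19260 tested genes were called (50.8%), 4643 higher and 5141 lower. Both comparisons share the J0951/UAS-YUC4 libraries, and the values are given side by side only. YUC4 was not called there (difference -0.85, adjusted p = 0.0784), with means of 74.1, 102, 825 and 4.64 FPKM in J0571, Q2500, J0121 and Q0990. GH3.3 was higher in J0951/UAS-YUC4, by 1.59 (SE 0.15, adjusted p = 6.39e-07), against means of 7.96, 11.2, 8.07 and 2.48 FPKM in the same order. ACS9 was higher by 2.05 (adjusted p = 4.71e-09) and EXPA12 by 2.27 (adjusted p = 1.05e-08). TIP2;3 was lower, with a difference of -1.76 (adjusted p = 1.17e-07), and so was LAX1 with -1.12 (adjusted p = 9.66e-07). QQS, which affects starch content and rose by 2.96 over J0951/Col, showed a difference of -0.01 from the other lines (adjusted p = 0.975), whose means were 45.1, 39.1, 46.8 and 33.4 FPKM. XTH26, up by 2.04 over J0951/Col, differed by 0.35 (adjusted p = 0.303).

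Upstream sequences of all tested genes were searched on both strands for 4 motifs, over the 250 bases described above. TGTCTC was present in 10.6% of all 19201 upstream regions, in 11.5% of those of genes called higher and in 9.76% of those called lower. Among genes called with at least 2-fold changes, the shares were 13.9% for higher and 7.28% for lower. In the Aux/IAA list 8 of 27 regions held it (29.6%), and in the GH3 and auxin inactivation list 5 of 14 (35.7%). TGTCGG was present in 4.68% of all regions and in 6 of 27 of the Aux/IAA list (22.2%). CACGTG, the G-box, was present in 7.19% of all regions, in 8.86% of genes called higher and in 5.49% of genes called lower. AAAATATCT, the evening element, was present in 2.48% of all regions, 2.68% of higher and 2.39% of lower calls. A match is a run of letters and says nothing of binding in these roots. ACS9, among the largest rises, held neither auxin element in this window.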

How the data were processed

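RNA was sequenced from whole roots in 18 libraries of 6 genotypes, 3 libraries each, with random-primed cDNA on an Illumina instrument, per the labels' protocols. The values are FPKM per gene locus as deposited by the authors, and no label or header names the aligner, the genome build, the strandedness of the libraries or the number of reads. The depth is therefore unknown, and no counting intervals are given. No value column was left unused. Genes were tested as log2(FPKM + 1) with limma 3.58.1 in R 4.3.3 (eBayes with a mean trend), with 1 mean per genotype over all 18 libraries and 12 residual degrees of freedom, so that all groups share the estimate of spread. Tested genes had at least 1 FPKM in at least 3 libraries (19260 of 25202 loci), and adjusted p-values are Benjamini-Hochberg over all of them, with calls under 0.05. A gene could pass this filter through the libraries of 1 genotype alone. The log2 scale understates changes of low genes. The script was tested on simulated data. The genes and gene lists were chosen with earlier results of these data known, and the seed list was added after its values were seen. Named genes were YUC4, the 20 highest and 20 lowest called genes with a mean of at least 5 FPKM and no overlap, members of the auxin lists, called and abundant uncalled members of other lists, runs of neighbours, the 10 most abundant genes, genes listed at 0 in 1 genotype, and the 10 largest differences from the other UAS-YUC4 groups. Seed genes outside that rule (OLEO2, MLS, SESA1 and SESA3) were chosen after their values were seen. Gene names and upstream sequences were matched by locus to the RefSeq annotation of TAIR10.1. Alternatives were another pseudocount, other filters, median-of-ratios and quantile scaling, no mean trend, a replicate block, the 6 libraries alone and each library left out. The result for 1 listed gene is not reported here. Python 3.11.15, pandas 2.3.3 and matplotlib 3.10.9 were used.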

Additional observations from a re-analysis of the deposited data

Results flagged for a closer look

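Genes whose level in J0951/UAS-YUC4 differed from the average of the 4 remaining UAS-YUC4 genotypes, by the limma test of that difference, are given here for the 10 largest differences among genes also called against J0951/Col. Driver line and YUC4 expression change together in this comparison. AT5G04120, of the phosphoglycerate mutase family, was 4.54 higher on the log2(FPKM + 1) scale (adjusted p = 1.47e-09), and it stood at 105, 131 and 103 FPKM in J0951/UAS-YUC4 against 32.2, 18.1 and 15.3 FPKM in J0951/Col, with means of 1.14, 4.09, 3.597 and 11.9 FPKM in J0571, Q2500, J0121 and Q0990. AT3G28320 was 3.69 higher, ASN1 3.58 higher and ICS2, an isochorismate synthase, 3.29 higher (adjusted p = 1.32e-08, 2.78e-08 and 5.39e-06). MLP28 was 2.98 higher and RBCS3B 2.91 higher (adjusted p = 4.31e-06 and 8.69e-06). The plastid-encoded ATCG00780, ATCG00800 and ATCG00810 differed by -3.15, -3.11 and -2.90 (adjusted p = 3.79e-07, 2.48e-06 and 2.38e-06). AT3G05900 differed by -2.89 (adjusted p = 6.49e-07).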

How the results depend on the processing

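The rise of YUC4 lay between 4.82 and 6.81 under all alternatives, the latter with a pseudocount of 0.1, and between 4.82 and 5.06 with any of the 6 libraries left out. Genes called against J0951/Col numbered 7383 to 8235 under the other settings and 5716 to 7052 with a library left out, fewest without J0951/UAS-YUC4 replicate 3. With a library left out, genes called against the other UAS-YUC4 groups numbered 7277 to 10381. The share of calls that were higher was 58.9%, and 48.4% with median-of-ratios scaling. Of 378 named genes that were called, 15 lost the call with median-of-ratios scaling and 26 to 48 with a library left out. With quantile normalization 15 lost it and 1 more was counted as reversed. Under quantile normalization MT1A, GRP7 and PBP1 turned to 0.604, 0.522 and 0.0, and the cause was not tested. Deviations of same-numbered libraries of the genotypes had correlations of -0.018, -0.0443 and -0.144. The labels do not state whether the numbers pair the libraries, and so few correlations cannot settle it. With a replicate block 7813 genes were called against J0951/Col and 9806 against the other groups, the rise of YUC4 was 4.95 (adjusted p = 6.37e-06 by limma), and 6 named genes lost their call. Without the filter on low values 31 SAUR genes were called higher against 17. The depth behind low FPKM values is unknown, and genes listed at 0 may lie under the detection limit.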
